A study of Mus musculus with 8 samples.

Results

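This account covers 10 genes of the circadian clock and its immediate output, chosen by name with earlier results of these data known: Arntl, Npas2, Nfil3, Per1, Per2, Per3, Nr1d1, Nr1d2, Dbp and Bhlhe40. They are 10 of 37119 genes or unnamed features and had 11 of the 55681 probes on the array, 1 for each gene and 2 for Dbp, found by matching the RefSeq accession of each probe to a gene symbol. Expression was read in the livers of 8 male C57BL/6 mice on 1-colour Agilent microarrays (Cy3), with a separate array for each mouse. The groups were a high-fat diet for 9 months (HFD 9 months, 58% fat), a normal diet for 9 months (ND 9 months, 4.8% fat), HFD for 3 months and ND for 3 months, with 2 animals in each. All animals were bought as 5-week-old males and fed ad libitum under 12 hours of light and 12 hours of dark, and were anesthetized with ether before liver was taken. The labels used here give no hour of day for the collection in any group. A difference in that hour between groups can therefore not be told apart from diet or duration. A whole liver sample holds several cell types, so fewer cells of a type and less RNA per cell cannot be told apart.

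The mammalian clock is a feedback loop of transcription that runs in nearly every cell and turns over about once a day. The activators BMAL1 (encoded by Arntl) and CLOCK or NPAS2 bind E-box elements and switch on the Period genes, the nuclear receptor genes Nr1d1 and Nr1d2, Dbp and Bhlhe40. The Period proteins then restrain the activators, and the receptors REV-ERBa and REV-ERBb (from Nr1d1 and Nr1d2) repress Arntl, Npas2 and Nfil3 through ROR elements. In mouse liver the transcripts of Arntl, Npas2 and Nfil3 therefore peak at another time of day than those of Dbp, the Period genes and the REV-ERB genes. The first set is called activator-phase here and the second repressor-phase. In liver the clock is known for timing lipid, glucose and bile acid metabolism, and feeding is one of the signals that sets it.

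Levels are log2 signals relative to the 75th percentile of the same array, so 0 marks that percentile, and the values of a group are given as animal 1, then animal 2. Changes are log2 differences ± SE from a limma model of all 8 livers (2 per group), with Benjamini-Hochberg adjustment over all 20164 features tested and a threshold of 0.05 on the adjusted p. The 75th percentile of the signal was 184 to 425 on the 4 HFD arrays and 477 to 593 on the 4 ND arrays, and 40.6% to 54.1% of spots were well above background. Both the lowest 75th percentile of the 8 arrays and the lowest share of spots belonged to HFD 9 months animal 2. All HFD arrays lay on 1 slide and all ND arrays on the other, so diet and slide cannot be told apart. Position on the slide went with duration (row 2 for 9 months, row 1 for 3 months), and these cannot be told apart either, while comparisons of durations stay within a slide. All animals were bought at the same age, so age and duration of feeding cannot be told apart in these comparisons.

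For Arntl and Nfil3 both ND 9 months animals lay above all animals of the other 3 groups. For Dbp, Bhlhe40, Nr1d2, Per2 and Per3 both lay below them, and for Per1 and Nr1d1 neither was so. In ND 9 months livers Dbp and Bhlhe40 were lower and Arntl was higher than in ND 3 months livers by the test. The same genes and Nr1d2 differed between HFD and ND at 9 months. The difference of the diet effects between 9 and 3 months passed for none of the 9 (lowest adjusted p = 0.269 by limma). Between HFD 9 months, HFD 3 months and ND 3 months none of the 9 measured clock genes passed the test in either comparison that the design gives among them (HFD against ND at 3 months, and 9 against 3 months on HFD). The comparison of diets at 9 months and that of durations on ND share the ND 9 months arrays, so they are not independent of each other. In both 9-month groups Per1, Per2 and Per3 differed more between the 2 animals than Dbp did.

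**Figure D1:**
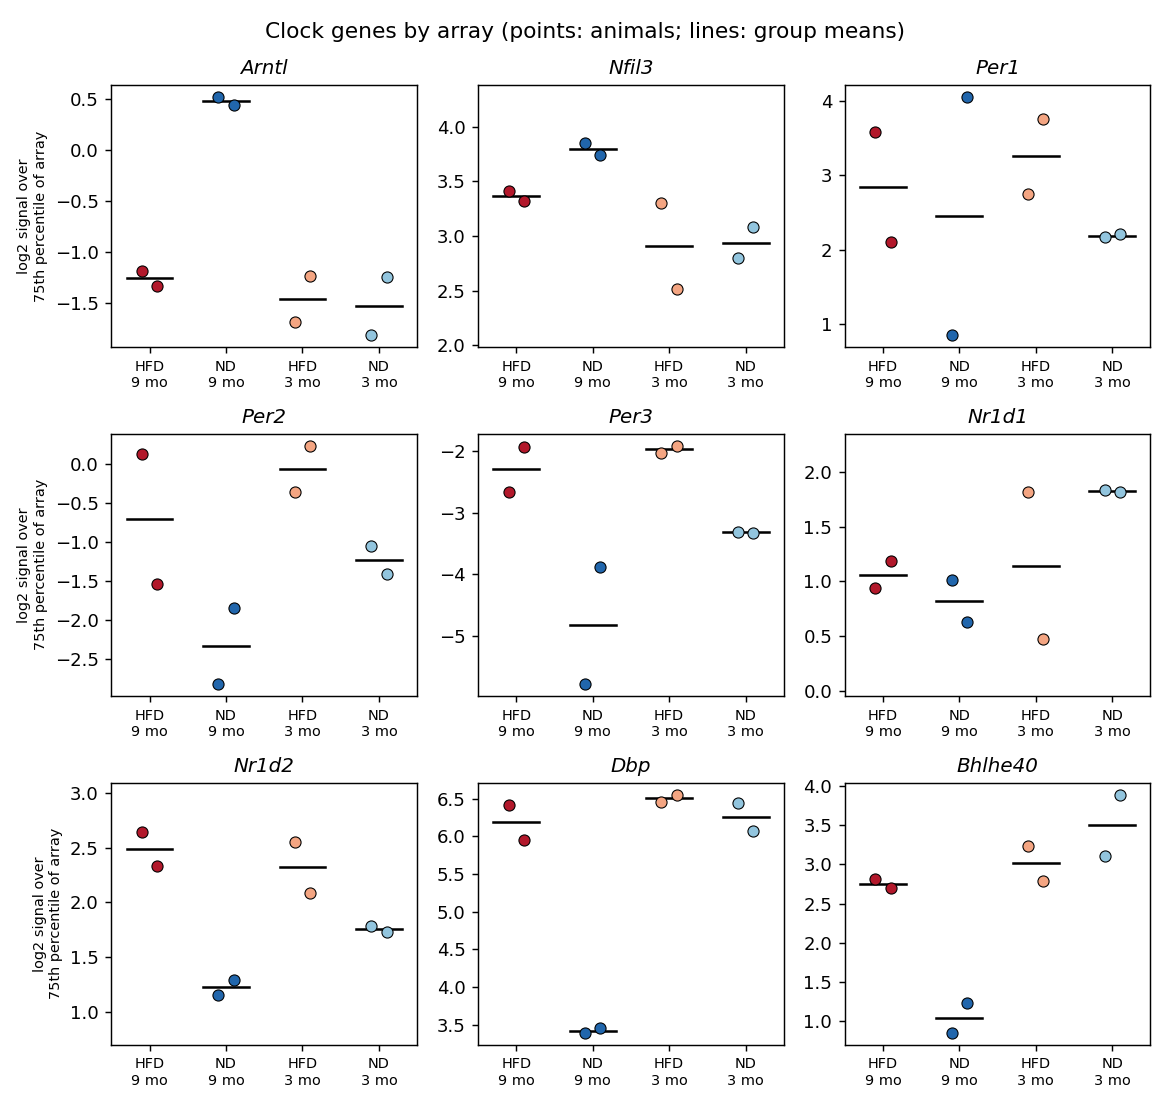
Level of each measured clock gene (log2 signal over the 75th percentile of the array, vertical axis, scale differs between panels) in the 4 groups, with 1 point per animal and a line at the group mean. The ND 9 months points of Dbp, Bhlhe40 and Arntl lie away from those of the 3 other groups, while those of Per1 lie below and above all the others.

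Arntl encodes BMAL1, the activator the loop cannot do without. Its level was -1.18 and -1.33 in HFD 9 months livers, against 0.52 and 0.44 in ND 9 months livers. It was -1.69 and -1.23 in HFD 3 months livers, against -1.82 and -1.25 in ND 3 months livers. Both ND 9 months animals lay above all 6 others, and the remaining groups overlapped. On HFD at 9 months it was lower by the limma fit (-1.74 ± 0.26, 3.34-fold, adjusted p = 0.0179). From 3 to 9 months it was higher on ND (2.01 ± 0.26, 4.04-fold, adjusted p = 0.0335) and was at 0.20 ± 0.26 on HFD (95% interval -0.43 to 0.84). The call at 9 months ended without ND 9 months animal 1 or animal 2 (adjusted p = 0.061 and 0.0784), with the change at -1.70 and -1.78.

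The promoter of Arntl is shown because ROR elements are where REV-ERB proteins repress it, and both REV-ERB genes are among the members. It covers 250 bases before to 50 after a start of Arntl, from RefSeq (GRCm38.p6, chr7:113207261-113207560, plus strand), with the match to the ROR element in capitals. The element was searched on both strands as the ROR response element, an AGGTCA core (or GGGTCA) with its A-rich leader.
Arntl: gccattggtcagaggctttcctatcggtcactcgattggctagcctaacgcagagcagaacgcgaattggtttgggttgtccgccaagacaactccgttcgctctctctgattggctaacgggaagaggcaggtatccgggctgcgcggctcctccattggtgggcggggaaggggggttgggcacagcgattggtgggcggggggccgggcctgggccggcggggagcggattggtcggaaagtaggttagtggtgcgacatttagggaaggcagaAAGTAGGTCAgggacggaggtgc
Of the 32851 promoters of this length in the table, 143 (0.435%) hold such a match, which describes the sequence and shows no binding. A second Arntl start in the table lies upstream, and its window ends before the element.

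Nfil3 encodes E4BP4, a repressor that competes with DBP for D-box elements and is itself repressed by REV-ERB proteins. Its level was 3.42 and 3.32 in HFD 9 months livers, against 3.85 and 3.75 in ND 9 months livers. It was 3.31 and 2.51 in HFD 3 months livers, against 2.80 and 3.08 in ND 3 months livers. The ND 9 months animals were again above all 6 others, by less than for Arntl. No change of Nfil3 passed the test: it was at -0.43 ± 0.29 for HFD against ND at 9 months and at 0.86 ± 0.29 for 9 against 3 months on ND (adjusted p = 0.367 and 0.227 by limma).

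Npas2, a relative of Clock that can take its place beside BMAL1, was not well above background on any of the 8 arrays. Its probe read -6.28 and -5.10 in HFD 9 months livers, against -5.92 and -6.53 in ND 9 months livers. It read -5.73 and -6.11 in HFD 3 months livers, against -6.79 and -5.83 in ND 3 months livers. It was left out of the test, and no fold is given for it.

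Dbp encodes a PAR bZIP transcription factor that carries the rhythm of the clock to D-box genes of liver metabolism. It was 6.42 and 5.95 in HFD 9 months livers, against 3.39 and 3.46 in ND 9 months livers. It was 6.46 and 6.56 in HFD 3 months livers, against 6.44 and 6.07 in ND 3 months livers. The 6 animals of those 3 groups lay within 5.95 to 6.56, and both ND 9 months animals lay far below them. Dbp was higher on HFD than on ND at 9 months (2.76 ± 0.23, 6.79-fold, adjusted p = 0.00654). It was lower at 9 than at 3 months on ND (-2.83 ± 0.23, 7.12-fold, adjusted p = 0.0156) and was at -0.32 ± 0.23 on HFD (95% interval -0.88 to 0.24). At 3 months the diets differed by 0.25 ± 0.23 (95% interval -0.31 to 0.81), which did not pass.

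The second Dbp probe gave 2.63 ± 0.21 for the diets at 9 months and -2.78 ± 0.21 for the durations on ND, when each probe was tested on its own (adjusted p = 0.00665 and 0.0111 by limma). With any 1 of the 8 arrays left out the diet difference of Dbp at 9 months was 2.53 to 3.00 and passed in 8 of 8 cases. The fall on ND passed in 4 of 8, and not without ND 3 months animal 1 or 2 or ND 9 months animal 1 or 2 (adjusted p = 0.18, 0.135, 0.0827 and 0.054), although the change stayed at -3.02 to -2.64. In a limma fit of the 4 arrays of 9 months alone the adjusted p of Dbp was 0.063, and 0 of 20164 features passed. The like fit of 3 months alone called 13.6% of features, against 5.15% in the fit of 8 arrays. The median difference between the 2 animals of a group was 0.43 (HFD) and 0.24 (ND) at 9 months. At 3 months it was 0.25 and 0.14. The fit of 8 arrays pools the spread of these groups, so its calls at 9 months also rest on the 3-month animals.

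Bhlhe40 encodes DEC1, a repressor that competes with the activators at E-boxes and responds to feeding and stress signals. Its level was 2.81 and 2.70 in HFD 9 months livers, against 0.85 and 1.23 in ND 9 months livers. It was 3.23 and 2.79 in HFD 3 months livers, against 3.11 and 3.89 in ND 3 months livers. The ND 9 months animals were below all 6 others. Bhlhe40 was higher on HFD at 9 months (1.72 ± 0.32, 3.28-fold, adjusted p = 0.0296) and lower at 9 than at 3 months on ND (-2.46 ± 0.32, 5.51-fold, adjusted p = 0.0335). The diet call ended without ND 9 months animal 1 or 2 or HFD 9 months animal 1 or 2 (adjusted p = 0.0952, 0.0879, 0.0646 and 0.0544), with changes of 1.53 to 1.91.

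Nr1d2 encodes REV-ERBb, a haem-binding repressor. Its level was 2.64 and 2.34 in HFD 9 months livers, against 1.15 and 1.29 in ND 9 months livers. It was 2.55 and 2.09 in HFD 3 months livers, against 1.79 and 1.73 in ND 3 months livers. All 4 HFD animals lay above all 4 ND animals, and within ND the 9-month animals lay lowest. The difference passed at 9 months (1.27 ± 0.22, 2.41-fold, adjusted p = 0.027) and not at 3 months (0.56 ± 0.22, adjusted p = 0.18), and these diet differences themselves differed by 0.71 ± 0.32 (adjusted p = 0.675 by limma). With normexp background correction the value at 9 months was 0.74 (adjusted p = 0.0936). The call ended without ND 3 months animal 1 or 2 (adjusted p = 0.0798 for each), ND 9 months animal 1 or 2 (0.0848 and 0.0976) or HFD 9 months animal 1 (0.0514).

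Nr1d1 encodes REV-ERBa, the better known of the pair and the main repressor of Arntl. Its level was 0.94 and 1.18 in HFD 9 months livers, against 1.01 and 0.63 in ND 9 months livers. It was 1.82 and 0.47 in HFD 3 months livers, against 1.83 and 1.81 in ND 3 months livers. The HFD 3 months animals spanned nearly the whole range of the 8, with 1 at the level of ND 3 months and the other below every other animal. No change passed. The value nearest to it was -1.01 ± 0.43 for 9 against 3 months on ND (adjusted p = 0.326 by limma), with both 9-month animals below both 3-month animals.

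The Period genes encode the repressors that close the loop, and Per1 and Per2 also answer quickly to hormonal and feeding signals. Per3 was -2.66 and -1.93 in HFD 9 months livers, against -5.79 and -3.87 in ND 9 months livers. It was -2.02 and -1.91 in HFD 3 months livers, against -3.31 and -3.32 in ND 3 months livers. All 4 HFD animals were above all 4 ND animals, and ND 9 months animal 1 was the only array of 8 on which the probe was not well above background. By limma Per3 was at 2.54 ± 0.60 at 9 months (adjusted p = 0.0531) and 1.35 ± 0.60 at 3 months (adjusted p = 0.21), just outside and outside the threshold. Without ND 9 months animal 2 the value at 9 months was 3.49 and passed (adjusted p = 0.0275), and without ND 9 months animal 1 it was 1.58 (adjusted p = 0.0686). The size of this change differed between settings, and Per3 at 9 months passed in 6 of 11 other settings. It was 0.73 with the authors' value table (adjusted p = 0.0324), 1.23 with normexp (0.027) and 1.43 with a floor on dim values (0.0338).

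Per2 was 0.12 and -1.55 in HFD 9 months livers, against -2.82 and -1.84 in ND 9 months livers. It was -0.37 and 0.23 in HFD 3 months livers, against -1.06 and -1.41 in ND 3 months livers. At each duration both HFD animals lay above both ND animals. The differences were 1.62 ± 0.60 at 9 months and 1.16 ± 0.60 at 3 months, neither past the threshold (adjusted p = 0.139 and 0.267 by limma). With 1 array left out the value at 9 months ran from 0.79 without HFD 9 months animal 1 (adjusted p = 0.329) to 2.46 without HFD 9 months animal 2, the 1 case of 8 that passed (adjusted p = 0.042). It was 1.13 without ND 9 months animal 1 (adjusted p = 0.375).

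Per1 was 3.58 and 2.10 in HFD 9 months livers, against 0.86 and 4.05 in ND 9 months livers. It was 2.75 and 3.75 in HFD 3 months livers, against 2.17 and 2.21 in ND 3 months livers. The lowest and the highest Per1 level of all 8 animals thus came from the same group, ND 9 months. At 3 months both HFD animals lay above both ND animals, and the change of 1.07 ± 1.04 did not pass (adjusted p = 0.545 by limma). The change at 9 months, 0.39 ± 1.04, had a 95% interval of -2.13 to 2.90, so differences of several fold either way lie within it.

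Promoters of Per1 and Per3 are shown because E-boxes and D-boxes are the elements through which the activators and DBP reach the Period genes. They come from RefSeq (GRCm38.p6) and span 250 bases before to 50 after the start, in the direction of transcription, at chr11:69098699-69098998 on the plus strand for Per1 and chr4:151044616-151044915 on the minus strand for Per3. Capitals mark an E-box (CACGTG) in Per1 and D-boxes (searched as TTATGTAA or TTACGTAA on both strands) in Per3.
Per1: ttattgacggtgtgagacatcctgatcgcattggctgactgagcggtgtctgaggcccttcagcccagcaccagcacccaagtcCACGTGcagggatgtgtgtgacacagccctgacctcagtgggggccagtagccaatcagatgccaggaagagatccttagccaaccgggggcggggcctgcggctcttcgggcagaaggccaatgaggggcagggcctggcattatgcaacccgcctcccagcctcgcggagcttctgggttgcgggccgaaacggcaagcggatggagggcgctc
Per3: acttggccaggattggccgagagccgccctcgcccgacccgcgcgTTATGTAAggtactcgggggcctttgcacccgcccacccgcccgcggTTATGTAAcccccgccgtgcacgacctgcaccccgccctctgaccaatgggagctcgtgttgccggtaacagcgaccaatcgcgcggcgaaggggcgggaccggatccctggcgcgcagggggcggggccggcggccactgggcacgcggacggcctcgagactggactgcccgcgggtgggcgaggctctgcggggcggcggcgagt
A second Per1 start in the table, downstream, has a window without any of the 3 motifs. Per3 holds 2 D-box matches in this window, and 347 of the 32851 promoters (1.06%) hold at least 1, while 2349 (7.15%) hold an E-box. Of the 10 windows that the table gives for 8 members, 3 hold any of the 3 motifs. In the other windows, Dbp and both REV-ERB genes included, these letters are absent.

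HFD was compared with ND at 9 months as the longer of the 2 feeding periods. Of the 9 clock genes tested, 3 were higher (Dbp, Bhlhe40 and Nr1d2) and 1 was lower (Arntl) on HFD by limma. That is 44.4% of the members against 8.29% of all features (3.59% higher and 4.7% lower). The members and the other gene lists were chosen with earlier results of these data known. This share and those given below therefore describe the lists and test no excess over all features. The arrays of the diets did not overlap for 7 of the 9, against 54.6% of all features. The median change was 1.62 for the 7 repressor-phase genes and -1.09 for the 2 measured activator-phase genes, against 0.02 for all features. In the fit of the 4 arrays of 9 months alone 0 of the 9 passed (0 of 20164 features), and 1 passed with array weights or with no filter on dim probes, Dbp each time.

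At 3 months the same comparison gave a call for 0 of the 9 clock genes by limma (1 at an unadjusted p under 0.05, Nr1d2), against 5.15% of all features (1.47% higher and 3.68% lower). The arrays did not overlap for 5 of the 9, against 70.9% of all features. The median change was 0.56 for the repressor-phase genes and 0.02 for the activator-phase genes, against -0.01 for all features. The difference of the diet effects between 9 and 3 months asks whether HFD and ND differed alike at both durations. It was 2.51 ± 0.33 for Dbp, 2.21 ± 0.45 for Bhlhe40 and -1.81 ± 0.37 for Arntl. None passed over all features (adjusted p = 0.269, 0.376 and 0.386 by limma), though these 3 had an unadjusted p under 0.05, and 0% of all features passed this contrast.

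On ND, the 9-month livers were set against the 3-month livers, which came from other animals on the same diet. By limma 1 clock gene was higher (Arntl) and 2 were lower (Dbp and Bhlhe40), 33.3% of the 9, against 1.05% of all features (0.441% higher and 0.61% lower). The arrays did not overlap for 8 of the 9, all but Per1, against 60.6% of all features. The median change was -1.10 for repressor-phase and 1.44 for activator-phase genes, against -0.08 for all features. The calls of Arntl and Bhlhe40 ended without any 1 of the ND arrays or of the HFD 3 months arrays (adjusted p of 0.0531 to 0.266 for Arntl and 0.0565 to 0.267 for Bhlhe40).

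On HFD the 9-month and 3-month livers gave 0 calls among the 9 clock genes by limma (0 at an unadjusted p under 0.05), against 0.00992% of all features (0.00496% higher and 0.00496% lower). The largest size of change was that of Per2 (-0.64 ± 0.60), and the 95% interval of Per1 (-2.93 to 2.10) is the widest. The arrays did not overlap for 2 of the 9, Dbp and Nfil3, against 44.3% of all features. The interval of Dbp on HFD (-0.88 to 0.24) does not reach the size seen on ND. The contrast that sets the 2 duration changes against each other is the difference of diet effects given above. It did not pass for Dbp (2.51 ± 0.33, adjusted p = 0.269 by limma).

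**Figure D2:**
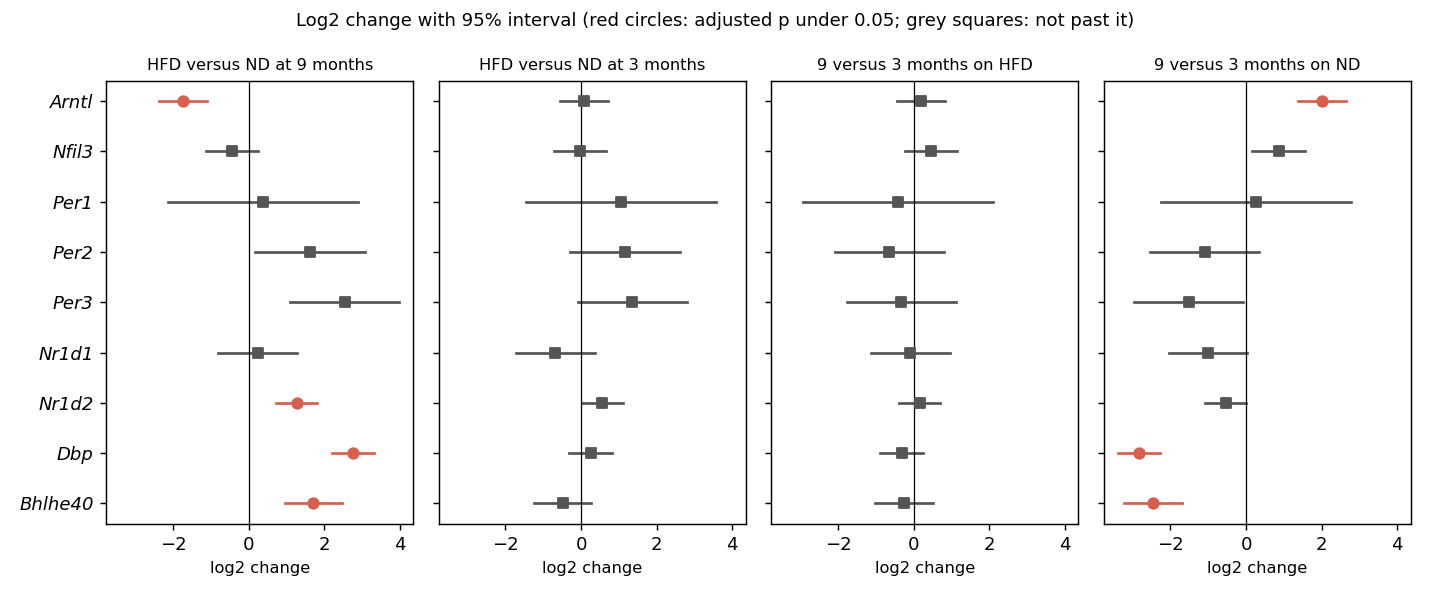
Log2 change (horizontal axis) of each measured clock gene in 4 comparisons, with 95% intervals from the limma fit of 8 arrays, red circles past an adjusted p of 0.05 and grey squares not past it. At 9 months Dbp (2.76), Bhlhe40 (1.72) and Nr1d2 (1.27) were higher and Arntl (-1.74) lower on HFD, and for 9 against 3 months on HFD every interval includes 0.

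Activator-phase and repressor-phase genes were set against each other on each array after centring every gene on its mean over the 8 arrays. Repressor-phase minus activator-phase signal was 0.62 and 0.30 in HFD 9 months livers, against -2.63 and -1.64 in ND 9 months livers. It was 1.00 and 1.11 in HFD 3 months livers, against 0.83 and 0.40 in ND 3 months livers. Only the ND 9 months animals were below 0, with a group mean of -2.13 ± 0.70, against 0.46 ± 0.22 in HFD 9 months livers (SD, n = 2 each). Dbp minus Arntl, 1 called gene of each phase, was 1.07 and 0.75 in HFD 9 months livers, against -3.66 and -3.52 in ND 9 months livers. It was 1.61 and 1.25 in HFD 3 months livers, against 1.72 and 0.78 in ND 3 months livers. The ND 9 months animals were alike in this pair and differed in the Period genes. Both genes of the pair had been called on these arrays, and a call favours genes with small differences between the animals of a group. These scores are descriptions of chosen genes and carry no test. With the Npas2 probe added to the activator-phase genes, the first score was 0.68 and -0.07 in HFD 9 months livers, against -2.32 and -1.16 in ND 9 months livers.

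**Figure D3:**
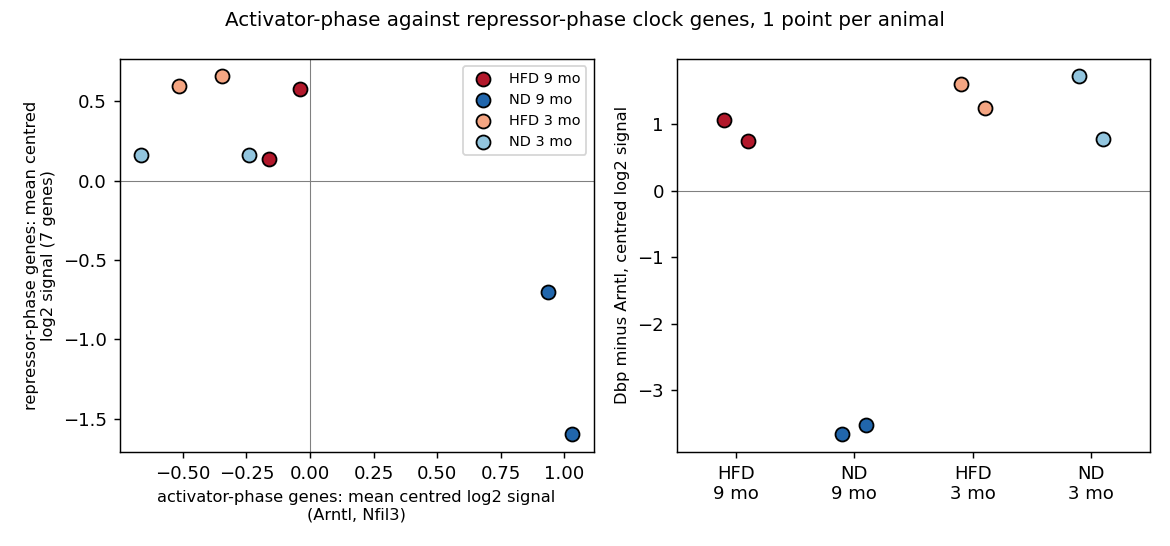
Left, the mean centred log2 signal of 7 repressor-phase genes (vertical axis) against that of Arntl and Nfil3 (horizontal axis), and right, Dbp minus Arntl (centred log2 signal) by group, 1 point per animal. The ND 9 months animals lie apart from the 6 others in both, at -3.66 and -3.52 on the right.

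Differences between the 2 animals of a group varied from gene to gene. In ND 9 months livers the animals differed by 3.19 in Per1, 1.91 in Per3 and 0.98 in Per2, and larger differences were seen for only 0.327%, 2.58% and 10.4% of all features. In the same livers they differed by 0.06 in Dbp and 0.08 in Arntl, below the median of 0.24 over all features. Animal 1 was the lower one for all 3 Period genes. In HFD 9 months livers animal 2 was lower than animal 1 in Per1 (by 1.48) and in Per2 (by 1.67) and higher in Per3, and the median difference over all features was 0.43. Per1 and Per2 means of the 9-month groups therefore rest on animals that differ.

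Of 14 other core clock genes listed, 12 were measured (Bhlhe41 and Arntl2 did not pass the filter on dim probes), and by limma 0 passed at 9 months for diet (4 at an unadjusted p under 0.05) and 0 for duration on ND (1 at an unadjusted p under 0.05), against 8.29% and 1.05% of all features, so with 12 genes these counts are near the background. Their median changes were 0.31 and -0.05. Clock, the partner of BMAL1, was at 0.17 ± 0.31 for HFD against ND at 9 months and 0.38 ± 0.31 for duration on ND. Cry1 and Cry2, which repress together with the Period proteins, were at -0.49 ± 0.34 and 0.62 ± 0.32 for diet at 9 months, Cry1 being well above background on 6 of 8 arrays. Ciart, a repressor of BMAL1 and CLOCK, had the widest spread, at -0.08 and -1.75 in HFD 9 months livers, against -5.77 and -1.95 in ND 9 months livers. The probe was well above background on 7 of 8 arrays and not in ND 9 months animal 1, so no size is given for its diet difference, and that difference did not pass (adjusted p = 0.175 by limma). The 1 call among these genes over the 4 comparisons was Timeless at 3 months, a gene of DNA replication as well, higher on HFD (2.08 ± 0.21, adjusted p = 0.00959). That call ended without ND 3 months animal 1 or 2 (adjusted p = 0.0753 and 0.117).

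Among output genes of the liver clock, 17 of 18 listed were measured (no probe matched Cyp2a5). For HFD against ND at 9 months 2 were higher (Wee1 and Tspan4) and 2 lower (Elovl3 and Insig2) by limma, 4 of 17 against 8.29% of all features (3.59% higher and 4.7% lower), with a median change of 0.36. Wee1, a cell cycle kinase gene, was 1.48 and 1.42 in HFD 9 months livers, against -2.30 and -1.39 in ND 9 months livers. It was 2.18 and 2.23 in HFD 3 months livers, against 0.30 and -0.09 in ND 3 months livers. The HFD animals were above the ND animals at each duration, and the change was 3.29 ± 0.32 at 9 months (adjusted p = 0.00743) and 2.10 ± 0.32 at 3 months (adjusted p = 0.0255). The call at 3 months ended without any 1 of the 4 arrays of 3 months (adjusted p of 0.0665 to 0.21), and that at 9 months held with any 1 array left out. The change at 9 months was smaller with the authors' value table (2.37) and with normexp (2.45), and ended as a call from the arrays of 9 months alone (adjusted p = 0.0685).

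Elovl3, a fatty acid elongase gene, was lower on HFD at 9 months (-2.71 ± 0.44, adjusted p = 0.022) and at 3 months (-2.92 ± 0.44, adjusted p = 0.0245). Insig2, which holds SREBP proteins in the endoplasmic reticulum and is repressed by REV-ERBa, was lower on HFD at 9 months (-1.13 ± 0.23, adjusted p = 0.0393). The tetraspanin gene Tspan4 was higher (1.46 ± 0.22, adjusted p = 0.0188). Cdkn1a, a cell cycle inhibitor that REV-ERBa represses, was higher on HFD at 3 months (2.25 ± 0.33, adjusted p = 0.0233) and higher at 9 than at 3 months on ND (4.06 ± 0.33, adjusted p = 0.0153). At 3 months 2 of 17 output genes were thus higher on HFD and 1 was lower by limma, against 1.47% and 3.68% of all features. For duration on ND 1 of 17 was higher and 0 were lower, against 0.441% and 0.61%. On HFD, 0 output genes passed between 9 and 3 months by limma (4 at an unadjusted p under 0.05). Only 0.00992% of all features passed there, so this count is near the background. With 1 array left out, Elovl3 passed at 9 months in 3 of 8 cases and at 3 months in 6 of 8, Insig2 in 1 of 8, Tspan4 in 4 of 8, and Cdkn1a in 4 of 8 for each of its contrasts. With the authors' value table Cdkn1a was at 1.08 for diet at 3 months, no longer past the threshold (adjusted p = 0.0599), and at 2.47 for duration on ND, and with normexp at 1.48 and 2.95. With array weights the calls at 9 months ended for Elovl3, Insig2 and Tspan4 (adjusted p = 0.0944, 0.115 and 0.0614).

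Tef, a PAR bZIP gene closely related to Dbp, was 6.67 and 6.14 in HFD 9 months livers, against 5.09 and 5.76 in ND 9 months livers. It was 6.83 and 6.65 in HFD 3 months livers, against 6.21 and 5.81 in ND 3 months livers. At 9 months both HFD animals were above both ND animals, as for Dbp, and the change was 0.98 ± 0.31 for diet at 9 months, which did not pass (adjusted p = 0.102 by limma). Usp2, a clock-driven deubiquitinase gene, was at 2.34 ± 0.68 (adjusted p = 0.0839 by limma) in that comparison.

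Genes that answer to glucocorticoids, heat and feeding were listed because such cues reset the liver clock. Of 14 listed, 13 were measured (no probe matched Hspa1b). For HFD against ND at 9 months 1 of 13 was higher and 0 were lower by limma, against 3.59% and 4.7% of all features. This count is near the background. The 1 gene was Srebf1, an activator of fatty acid synthesis (2.75 ± 0.27, adjusted p = 0.00743), and the median change over the list was -0.58. For 9 against 3 months on ND 1 of 13 was lower and 1 higher by limma, against 0.61% and 0.441% of all features. Srebf1 was lower (-4.38 ± 0.27, adjusted p = 0.00696) and the heat shock gene Hsph1 was higher (1.67 ± 0.24, adjusted p = 0.0435). Srebf1 was also at -2.47 ± 0.27 for 9 against 3 months on HFD, just outside the threshold (adjusted p = 0.0553 by limma). Fkbp5, a glucocorticoid target, was 4.14 and 3.71 in HFD 9 months livers, against 3.79 and 5.16 in ND 9 months livers. It was 1.44 and 2.44 in HFD 3 months livers, against 2.48 and 2.59 in ND 3 months livers, and no change of it passed. The part of such cues in the clock values was not tested. With 1 array left out, Hsph1 passed in 2 of 8 cases, and Srebf1 in 8 of 8 for diet and in 5 of 8 for duration. The diet call of Srebf1 ended when arrays were weighted (adjusted p = 0.0767) and when the 9-month livers were fitted by themselves (adjusted p = 0.062), and its duration change was -3.64 with the authors' value table.

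**Figure D4:**
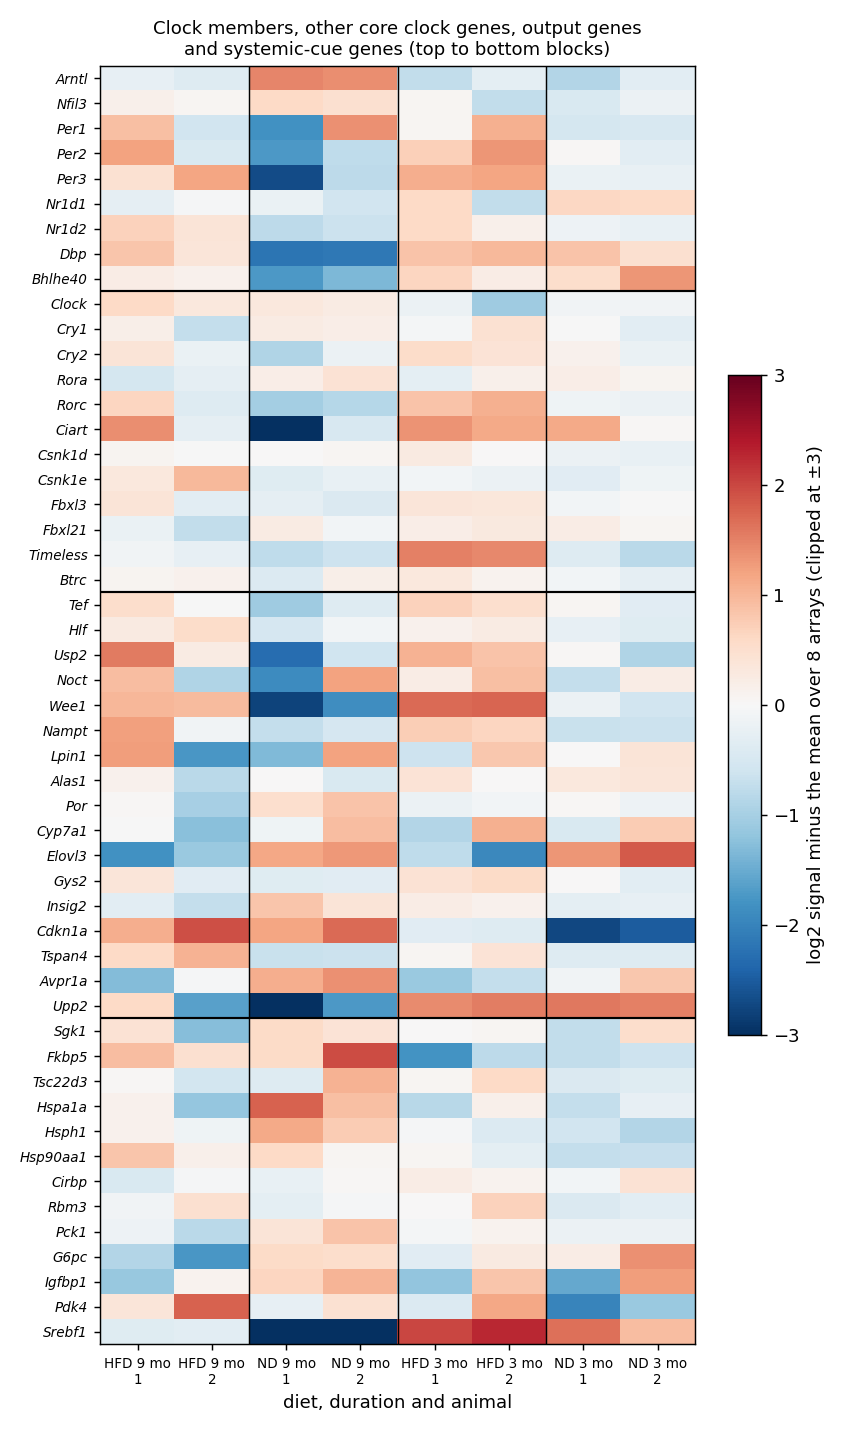
Log2 signal minus the gene's mean over the 8 arrays (colour, clipped at 3 either way) for the 9 measured clock genes, then other core clock genes, output genes and systemic-cue genes, with 1 column per animal. The ND 9 months columns are blue for Dbp, Bhlhe40, Wee1 and Srebf1 and red for Arntl.

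Markers of cell types were read beside these values. The 8 hepatocyte markers had a mean level of 7.63 to 7.79 in HFD 9 months livers, against 8.15 to 8.23 in ND 9 months livers, and of 7.79 to 7.80 in HFD 3 months livers, against 8.25 to 8.37 in ND 3 months livers. Of the 8 hepatocyte markers 1 was called, Tat, lower on HFD at 9 months (-1.84 ± 0.30, adjusted p = 0.0231 by limma). The 6 of 7 macrophage markers measured had a mean of 3.44 to 3.81 in HFD 9 months livers, against 2.55 to 4.31 in ND 9 months livers, with animal 1 the higher of the ND pair. It was 2.95 to 3.28 in HFD 3 months livers, against 1.51 to 2.18 in ND 3 months livers. For 9 against 3 months on ND, where Arntl, Dbp and Bhlhe40 were called, 6 of 6 macrophage markers had a positive change (median 1.58) and 0 were called. The 2 of 5 adipocyte markers measured, Cfd and Fabp4, had a mean of 2.24 to 3.37 in HFD 9 months livers, against -1.65 to 0.31 in ND 9 months livers. It was 3.24 to 3.61 in HFD 3 months livers, against 1.48 to 2.10 in ND 3 months livers. Fabp4 was called higher on HFD at 9 months (3.25 ± 0.45, adjusted p = 0.015 by limma). For 9 against 3 months on ND both had a negative change (median -2.46) and 0 were called. That median mostly reflects Cfd, which was lower in both ND 9 months animals than in both ND 3 months animals. Fabp4 overlapped, at 0.787 and 0.320 in ND 9 months livers, against 0.702 and 0.873 in ND 3 months livers. Adipoq, Lep and Plin1 did not pass the filter on dim probes. For T and NK cell markers (3 of 6 measured) the mean level ran from 2.31 to 2.98 on the HFD arrays and from 3.84 to 4.08 on the ND arrays. Over the 8 arrays it ran from -1.76 to 3.75 for neutrophil markers (2 of 3) and 1.05 to 2.12 for endothelial markers (6 of 6). Among these the calls for diet were the T cell marker Cd4, lower on HFD at 9 and at 3 months (adjusted p = 0.0108 and 0.0274), and the endothelial marker Lyve1, higher at 3 months (2.28 ± 0.35, limma). Other members of these lists went otherwise. Nkg7 was at 0.00 ± 0.20 at 9 months and 0.23 ± 0.20 at 3 months. The endothelial marker Kdr was 3.22 and 3.48 in HFD 3 months livers, against 4.34 and 4.70 in ND 3 months livers. The mean level of stellate markers (5 of 6) ran from 1.12 to 1.57 on the HFD arrays and from -0.14 to 0.41 on the ND arrays. That of cholangiocyte markers (3 of 5) ran from -2.23 to -1.08 over the 8 arrays. The stellate marker Col1a1 was higher on HFD at 9 and at 3 months (3.35 ± 0.38 and 2.85 ± 0.38, adjusted p = 0.01 and 0.019 by limma). The part of cell type makeup in the clock values was not tested.

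The named genes with patterns most like Dbp and Arntl were found among 10959 features with a symbol that were well above background on all 8 arrays. The 10 members were left out of these candidates beforehand. Likeness was measured as the root mean square difference of the centred log2 profiles over the 8 arrays. Nearest to Dbp were Mme (0.32), Tmem14a (0.35), Lgals1 (0.36), Ptgr1 (0.36) and Dcaf12l1 (0.39). Nearest to Arntl were Gfra1 (0.28), Sorbs3 (0.30), Tmem43 (0.31), Chrna2 (0.34) and Grn (0.35). None of these nearest genes is in the lists of other core clock genes, output genes or systemic-cue genes used here.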

How the data were processed

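Per the submitters' processing notes the scans were read by Agilent Feature Extraction 10.7.1.1. Per the file headers the deposited intensity has its background subtracted and its spatial trend removed, and the flags are other values of 0 or 1 per spot. The authors' deposited table holds log2 values with the same rank order as the scanner's median signal (rho = 1), with column medians of 7.14.

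Of 59305 spots without controls those with outlier flags were dropped, log2 signals (pseudocount 0) had the 75th percentile of their array subtracted, and spots of a probe were averaged (55603 probes had a value on all arrays). The 25800 probes that both animals of some group showed well above background were kept, and the brightest per gene was tested, which gave 20164 features, 12884 with a symbol. Symbols come from a RefSeq table of GRCm38.p6 by accession (26056 probes). Tests used limma 3.58.1 in R 4.3.3 with 4 group means (4 residual and 2.32 prior degrees of freedom) and were checked on simulated data. Figures were drawn with Python 3.11.15 and matplotlib 3.10.9.

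The members and lists were chosen with earlier results of these data known. A listed gene is not reported here and is left out of its list's counts. All members are named with every probe, and of the other lists every gene past the threshold, a few relatives being added after their values were seen (Clock, Cry1, Cry2, Ciart, Tef, Usp2 and Fkbp5). Replicates are separate mice per the labels, and 2 per group limit the precision. Alternatives changed the normalization, background correction, filter, probe choice, moderation, arrays used and values used.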

Additional observations from a re-analysis of the deposited data

How the results depend on the processing

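Each of the 45 changes of the 9 measured members was recomputed under up to 12 other settings and with each array left out, where the lone array of a group is assumed to vary like the others. The number of members called for HFD against ND at 9 months was 4, and was 1 with array weights, 1 without the filter on dim probes, 0 from the arrays of 9 months alone and 1 to 4 with 1 array left out. For 9 against 3 months on ND it was 3, and was 0 with no filter, 1 from the ND arrays alone and 0 to 3 with 1 array left out. At 3 months it was 0, and was 1 (Per3) with a floor on dim values and 1 (Per3) from the arrays of 3 months alone. With the replicate number as a block it was 5 at 9 months and 1 on ND. The labels do not pair animals across groups, the deviations of same-numbered animals correlated with r = -0.018 to 0.137 over features, and the lowest of these, between HFD and ND at 9 months, was below 0, so not every animal correlated best with its own number. The fifth member under the block was Per3, and Per3 at 9 months also passed with quantile normalization, normexp, the authors' table, a floor on dim values and robust moderation. The other normalizations, the authors' table and the probe choices gave counts within 1.5 times of these.

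All reversed values had not passed the test. Nfil3 at 3 months was 0.0065 with quantile normalization, 0.021 with normexp and 0.10 with the authors' table, and Nr1d2 for duration on HFD was -0.21 with normexp and -0.12 with the authors' table. With 1 array left out the sign turned for Arntl at 3 months (-0.21 to 0.36), Nfil3 at 3 months (-0.43 to 0.37) and Per1 at 9 months (-1.21 to 1.98). It turned for duration on ND for Per1 (-1.33 to 1.86), and on HFD for Arntl (-0.027 to 0.43), Per1 (-1.15 to 0.33), Per2 (-1.48 to 0.19), Per3 (-0.69 to 0.039), Nr1d1 (-0.76 to 0.59) and Nr1d2 (-0.063 to 0.40). The difference of diet effects turned for Per1 (-2.28 to 0.92) and Per2 (-0.38 to 1.29). The causes were not tested. Signal over background limits Npas2 and Per3.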
